A study of Arabidopsis thaliana with 12 samples.

Results

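AT2G32560 is a gene on chromosome 2 of Arabidopsis thaliana that the reference annotation describes as a member of the F-box family, with no symbol. It is 1 of 27588 genes in a table of RNA-seq counts from whole seedlings, and it was chosen by these counts themselves, which were low in a cfh1 mutant and high in a CFH1 decoy line. Its differences from Col-0 in those 2 lines are therefore given as a description, without a test. The study sequenced messenger RNA from 12 libraries, 3 for each of 4 genotypes in the Columbia 0 ecotype. These were the cfh1 mutant, the CFH1 decoy line, a PIF3 over-expression line and the wild type, Col-0. Seedlings grew for 7 days with 12 h of light and 12 h of darkness per day and then in constant red light, and were harvested on day 12 at zeitgeber time 1, that is 1 h after subjective dawn. The PIF3 libraries carry a mutant name in their titles but over-expression as their genotype, and their PIF3 counts went with the genotype. The sources used here do not pair the name CFH1 with a locus, so no statement is made on whether AT2G32560 is CFH1. The labels give neither the mutant allele nor the promoter or sequence of the decoy construct, and gene-level counts cannot tell reads of a transgene apart from reads of the endogenous copy. With 1 harvest time, a changed level cannot be told apart from a changed phase of a daily rhythm. In whole seedlings, fewer cells of a type and less RNA per cell also cannot be told apart.

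F-box proteins are the substrate-binding subunits of SCF complexes, a class of E3 ubiquitin ligases. In these complexes a cullin (CUL1) holds a RING protein at one end and a SKP1-like adaptor (ASK1 and relatives) at the other, and the F-box protein docks onto the adaptor. The substrate it holds is ubiquitinated and is often then degraded by the proteasome. Plants carry a very large family of F-box genes, among them receptors for auxin, jasmonate and light, and ZTL, a blue-light receptor that sets the pace of the circadian clock. A decoy of this class usually lacks the F-box itself, so that it can bind substrates but not the adaptor.

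In RefSeq's TAIR10.1 annotation AT2G32560 covers chr2:13824663-13827260 on the plus strand, 2598 bases. It is protein coding, with 2 annotated transcripts. One has 5 exons and 1772 bases and encodes 371 residues, and the other has 4 exons and 2076 bases and encodes 331 residues. Its closest relative by protein is AT2G26850, an F-box gene on the minus strand at chr2:11448976-11451270. The encoded proteins were identical at 297 of 372 aligned positions (79.8%), and the coding sequences at 85.2% of 1119 aligned bases. AT2G26850 was also the only gene whose coding sequence shared a run of 25 bases with AT2G32560. The longest such run is shown because a read inside it could have come from either gene. Both windows are coding sequence, 5′ to 3′, that crosses an exon junction, with the intron left out; capitals mark the 62 identical bases. They lie in TAIR10.1 at chr2:13825373-13825561 on the plus strand for AT2G32560 and at chr2:11450145-11450339 on the minus strand for AT2G26850.
AT2G32560: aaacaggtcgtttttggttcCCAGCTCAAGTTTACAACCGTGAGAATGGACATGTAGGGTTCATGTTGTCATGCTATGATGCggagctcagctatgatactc
AT2G26850: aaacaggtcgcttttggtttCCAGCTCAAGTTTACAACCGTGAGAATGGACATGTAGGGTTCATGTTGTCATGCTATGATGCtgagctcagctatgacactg

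Total counts ran from 21914394 to 34345088 per library. The decoy libraries stood apart from the rest: 95 genes with a Col-0 mean of at least 1 CPM (counts scaled to a common library size and corrected for library composition) had at most 3 counts over the 3 decoy libraries, against 0 such genes in the cfh1 mutant and 0 in the PIF3 line. Of the 21235 genes tested with edgeR's quasi-likelihood test against Col-0, 0.0706% passed an adjusted p of 0.05 in the cfh1 mutant (0.0141% higher, 0.0565% lower), 40.8% in the decoy line and 13.3% in the PIF3 line. An unadjusted p under 0.05 was reached by 4.54%, 50.1% and 27.1% of the genes in these lines. Both sets of shares are the background for the counts below, and all-gene medians of the log2 fold change were 0.00 in each line. PIF3, the gene that the PIF3 line over-expresses, averaged 354 ± 8.05 CPM there and 28.8 ± 7.32 CPM in Col-0 (SD, n = 3 each). Leaf markers were abundant in every library and all 3 of 3 (RBCS1A, CAB3 and LHCB3) were called higher in the decoy line, where their summed level was 23325 to 30374 CPM, against 15315 to 16509 CPM in Col-0. Of the same 3, 1 was called lower in the PIF3 line and the sum was 7291 to 11302 CPM. Of 4 root markers, 2 were called higher and 1 lower in the decoy line, with sums of 5082 to 6777 CPM, against 2979 to 4093 CPM in Col-0. PYK10 alone held 5075 to 6757 CPM of these sums in the decoy line and 2958 to 4067 CPM in Col-0. Log2 fold changes in the decoy line were 0.85 for PYK10, 1.81 for NRT2.1, -1.38 for EXPA7 and -0.10 for COBL9, the last not called. Sums of 3 seed storage markers were 3.58 to 12.4 CPM in the PIF3 line, 1 of them called higher, and 0.545 to 1.13 CPM in Col-0. Sums of 3 flower markers stayed between 0.153 and 0.763 CPM in all 12 libraries. No marker was at 0 counts in a whole group, and the part of these shifts in the results on AT2G32560 was not tested.

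AT2G32560 was detected in all 12 libraries. In the cfh1 mutant its level was 15.4, 16.5 and 17.8 CPM, from 448, 440 and 585 counts. The decoy libraries held 383, 294 and 353 CPM, from 6652, 9480 and 10166 counts. The gene had 26.1, 40.9 and 33.8 CPM, from 926, 1371 and 1201 counts in the PIF3 over-expression line, and in Col-0 it had 45.7, 42.8 and 34.5 CPM, from 1592, 1461 and 1004 counts. All cfh1 libraries lay below all others, and all decoy libraries lay above all others, whereas the ranges of the PIF3 line and Col-0 overlapped.

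**Figure D1:**
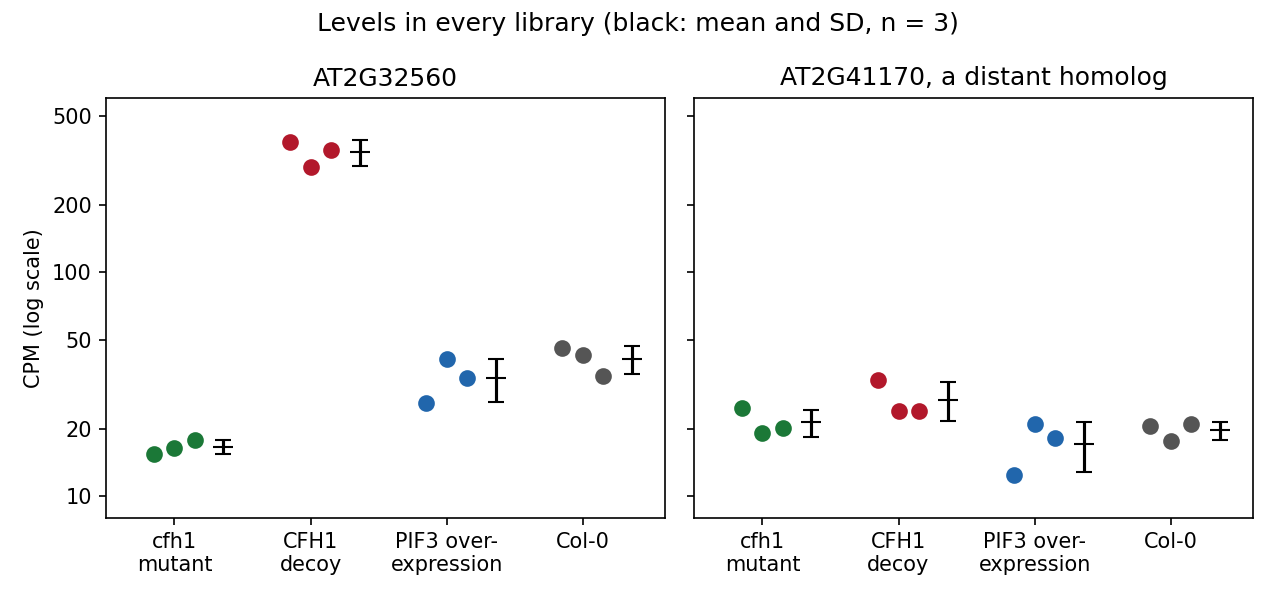
Level of AT2G32560 (left) and of its distant relative AT2G41170 (right) in every library, in CPM on a log axis, for the cfh1 mutant, the CFH1 decoy line, the PIF3 over-expression line and Col-0; points are single libraries and the black marks give the mean and SD of 3. For AT2G32560 the decoy libraries sit between 294 and 383 CPM and the cfh1 libraries between 15.4 and 17.8 CPM, with the PIF3 line and Col-0 overlapping between them.

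Group means were 16.6 ± 1.20 CPM in the cfh1 mutant, 343 ± 45.1 CPM in the decoy line, 33.6 ± 7.38 CPM in the PIF3 line and 41.0 ± 5.83 CPM in Col-0 (SD, n = 3 each). The order of the levels was thus decoy, Col-0, PIF3 over-expression and cfh1. The cfh1 mean was 40.4% of the Col-0 mean, with at least 440 counts in every cfh1 library. The decoy mean was 8.37-fold the Col-0 mean and 20.7-fold the cfh1 mean. On the log2 scale of the edgeR fit the differences from Col-0 were -1.31 (SE 0.169) in the cfh1 mutant and 3.06 (SE 0.176) in the decoy line. A fit without the decoy libraries gave the same value of -1.31 for the cfh1 mutant. Scaling by library totals alone, which shifted the decoy's all-gene median to -0.25, gave 2.80 for the decoy. Among all 21235 genes tested, 82 had a lower log2 fold change in the cfh1 mutant and 155 a higher one in the decoy line, a place that follows from how the gene was chosen.

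The PIF3 over-expression line was not used in choosing the gene and was tested. The Col-0 libraries in this test are shared with the comparisons that the choice used, so the test is not wholly separate from it. The PIF3 line's mean was 81.9% of the Col-0 mean, a log2 fold change of -0.29 (SE 0.165) that did not pass edgeR's test (adjusted p = 0.286 over 21235 genes). The interval of 95% around this difference ran from -0.64 to 0.07, that is from 0.640-fold to 1.05-fold of Col-0. Both no change and a fall to 0.640-fold lie inside it. The value was -0.14 without replicate 1 of the PIF3 line, the lowest of its 3 libraries, and -0.45 without replicate 2, the highest, and no alternative passed the threshold. Without the decoy libraries the fold change was -0.28, with an edgeR adjusted p of 0.224.

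Per kilobase of its longest transcript, AT2G32560 stood at 7.99 CPM per kb in the cfh1 mutant, 165 CPM per kb in the decoy line, 16.2 CPM per kb in the PIF3 line and 19.8 CPM per kb in Col-0. On this scale 45.8% of 21112 ranked genes were below it in the cfh1 mutant, 96.8% in the decoy line, 67.1% in the PIF3 line and 72.6% in Col-0. A set of 185 tested genes has F-box in the reference product. In it AT2G32560 ranked 50 in the cfh1 mutant, 2 in the decoy line, 20 in the PIF3 line and 11 in Col-0. The set leaves out F-box genes whose product lacks that word, such as ZTL. The ranks thus hold within the set and not for the whole family. The one gene of the set above AT2G32560 in the decoy line was AT1G27540, at 169 CPM per kb. The median gene of the set stood at 4.13, 4.52, 4.39 and 3.91 CPM per kb in the cfh1 mutant, the decoy line, the PIF3 line and Col-0. AT2G32560 was thus above the middle of this set in all 4 genotypes.

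AT2G26850, whose coding sequence is shown above, had 0 counts in 11 of 12 libraries and 1 count in decoy replicate 3. A count of 0 over a group allowed up to 0.0339 CPM in the cfh1 mutant, 0.0287 CPM in the PIF3 line and 0.0306 CPM in Col-0, and the decoy group's limit of 3 counts was 0.0382 CPM. These limits cover counting error only. It fell under the filter on low counts and was not tested. The deposited count of AT2G32560 was not a whole number in 8 of 12 libraries, and the step that made fractional counts is not known from the labels. These were 3 cfh1 libraries, 3 decoy libraries, 1 PIF3 library and 1 Col-0 library. The part of this step in the differences from Col-0 was not tested. Adding the counts of both genes left the log2 fold changes of AT2G32560 at -1.31, 3.06 and -0.29 in the cfh1 mutant, the decoy line and the PIF3 line. With so few counts of AT2G26850 the sum could not have moved them. It therefore cannot tell whether reads of AT2G26850 were credited to AT2G32560.

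The next relative, AT2G41170, is an F-box gene on the minus strand at chr2:17159074-17161294. It was identical at 175 of 358 aligned residues (48.9%), and its longest exact coding run shared with AT2G32560 was 17 bases. Its level was 24.7, 19.0 and 20.2 CPM in the cfh1 mutant, 33.0, 24.0 and 23.9 CPM in the decoy line, 12.4, 20.9 and 18.2 CPM in the PIF3 line and 20.4, 17.5 and 20.9 CPM in Col-0. The decoy libraries were all above Col-0 and the other lines overlapped it. None of the log2 fold changes of 0.12 (cfh1), 0.45 (decoy) and -0.19 (PIF3 line) passed edgeR's test, with adjusted p-values of 0.976, 0.070 and 0.552. Without cfh1 replicate 1 the cfh1 value was -0.00095.

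The genes around AT2G32560 were examined to see whether the locus moved as a block. In the 78 kb window of 10 tested genes on either side, edgeR called 0 of 20 in the cfh1 mutant, with 4 (20.0%) at an unadjusted p under 0.05 beside 4.54% of all genes, and DESeq2 also called 0. The decoy line had 4 called higher and 5 lower, a share of 45.0% beside the background of 40.8%. The PIF3 line had 0 higher and 4 lower, 20.0% beside 13.3%. Medians of the log2 fold change over the 20 were 0.13, 0.09 and -0.17 in the cfh1 mutant, the decoy line and the PIF3 line. The PIF3 count was 2 lower genes when any 1 of the 3 PIF3 or 3 Col-0 libraries was left out, and with library totals alone it was 1 higher and 2 lower. Over all genes the PIF3 line had 461 to 1429 lower with single libraries left out, against 1554 in the main fit. For the decoy line the higher count was 2 without decoy replicate 1 or Col-0 replicate 2, and the lower count was 2 without decoy replicate 1. Over all genes the decoy line had 2830 to 4431 higher and 3453 to 4987 lower with single libraries left out. Library totals alone, which shifted the decoy's all-gene median to -0.25, gave 2 neighbours higher and 7 lower there.

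The nearest tested neighbours on either side were described singly. AT2G32580, which encodes a putative transmembrane protein, starts 164 bases downstream on the same strand, so reads near its start could be assigned to either gene. It averaged 41.8 ± 3.20 CPM in the cfh1 mutant, 29.2 ± 1.85 CPM in the decoy line, 30.7 ± 3.74 CPM in the PIF3 line and 34.6 ± 1.07 CPM in Col-0 (SD, n = 3 each). Its log2 fold changes were 0.27, -0.25 and -0.17 in that order of lines, and none passed edgeR's test (adjusted p = 0.969, 0.0839 and 0.326). With library totals alone the decoy value was -0.50 and passed (edgeR adjusted p = 0.0055). On the upstream side, AT2G32550, an Rcd1-like gene ending 1801 bases before AT2G32560, was weakly expressed. It had 0.759, 0.898 and 0.885 CPM in the cfh1 mutant, 3.57, 2.91 and 1.98 CPM in the decoy line, 0.226, 0.328 and 0.337 CPM in the PIF3 line and 1.44, 1.09 and 0.893 CPM in Col-0. All decoy libraries were above Col-0 and all PIF3 libraries below it. Its log2 fold change was 1.29 (SE 0.295, edgeR adjusted p = 0.0044) in the decoy line and -1.93 (SE 0.338, edgeR adjusted p = 0.00463) in the PIF3 line, and -0.43 in the cfh1 mutant, which did not pass (edgeR adjusted p = 0.969).

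Beyond these, CSLB04, a cellulose synthase-like gene, was higher in the decoy line at 94.4 ± 21.3 CPM, against 63.1 ± 8.89 CPM in Col-0 (log2 fold change 0.58, SE 0.167, edgeR adjusted p = 0.0150). EMB2795, which encodes a condensin subunit, was lower there at 4.42 ± 0.860 CPM, against 7.10 ± 1.08 CPM in Col-0 (log2 fold change -0.68, SE 0.176, edgeR adjusted p = 0.00888). Neither passed in the other lines. The decoy call on CSLB04 was lost without decoy replicate 1 (0.38) or Col-0 replicate 2 (0.48), and with library totals alone (0.31). AT2G32487, an uncharacterized gene, and RLP22, a receptor-like protein gene, both had a log2 fold change of -0.997 in the decoy line (edgeR adjusted p = 0.0190 and 0.0195). The call on AT2G32487 was lost without decoy replicate 1 (-0.76) or Col-0 replicate 2 (-0.72), and the call on RLP22 without decoy replicate 1 (-0.87) or Col-0 replicate 3 (-0.81). In the PIF3 line AT2G32500, a stress-responsive barrel-domain gene, had 16.5 ± 4.45 CPM, against 32.6 ± 4.54 CPM in Col-0 (log2 fold change -0.99, SE 0.205, edgeR adjusted p = 0.00931). CSLB03 and AT2G32640, a lycopene cyclase-like gene, were also called lower there, at -0.69 and -0.42 (edgeR adjusted p = 0.0396 and 0.0342). Both of these calls were lost when any 1 of the 6 libraries was left out, with values of -0.75 to -0.61 for CSLB03 and -0.47 to -0.33 for AT2G32640. In the decoy line CSLB03 was also called lower (-0.73, edgeR adjusted p = 0.0130). AT2G32640 was called higher there (0.31, edgeR adjusted p = 0.0482), a call lost when any 1 library was left out. AT2G32500 did not pass there.

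**Figure D2:**
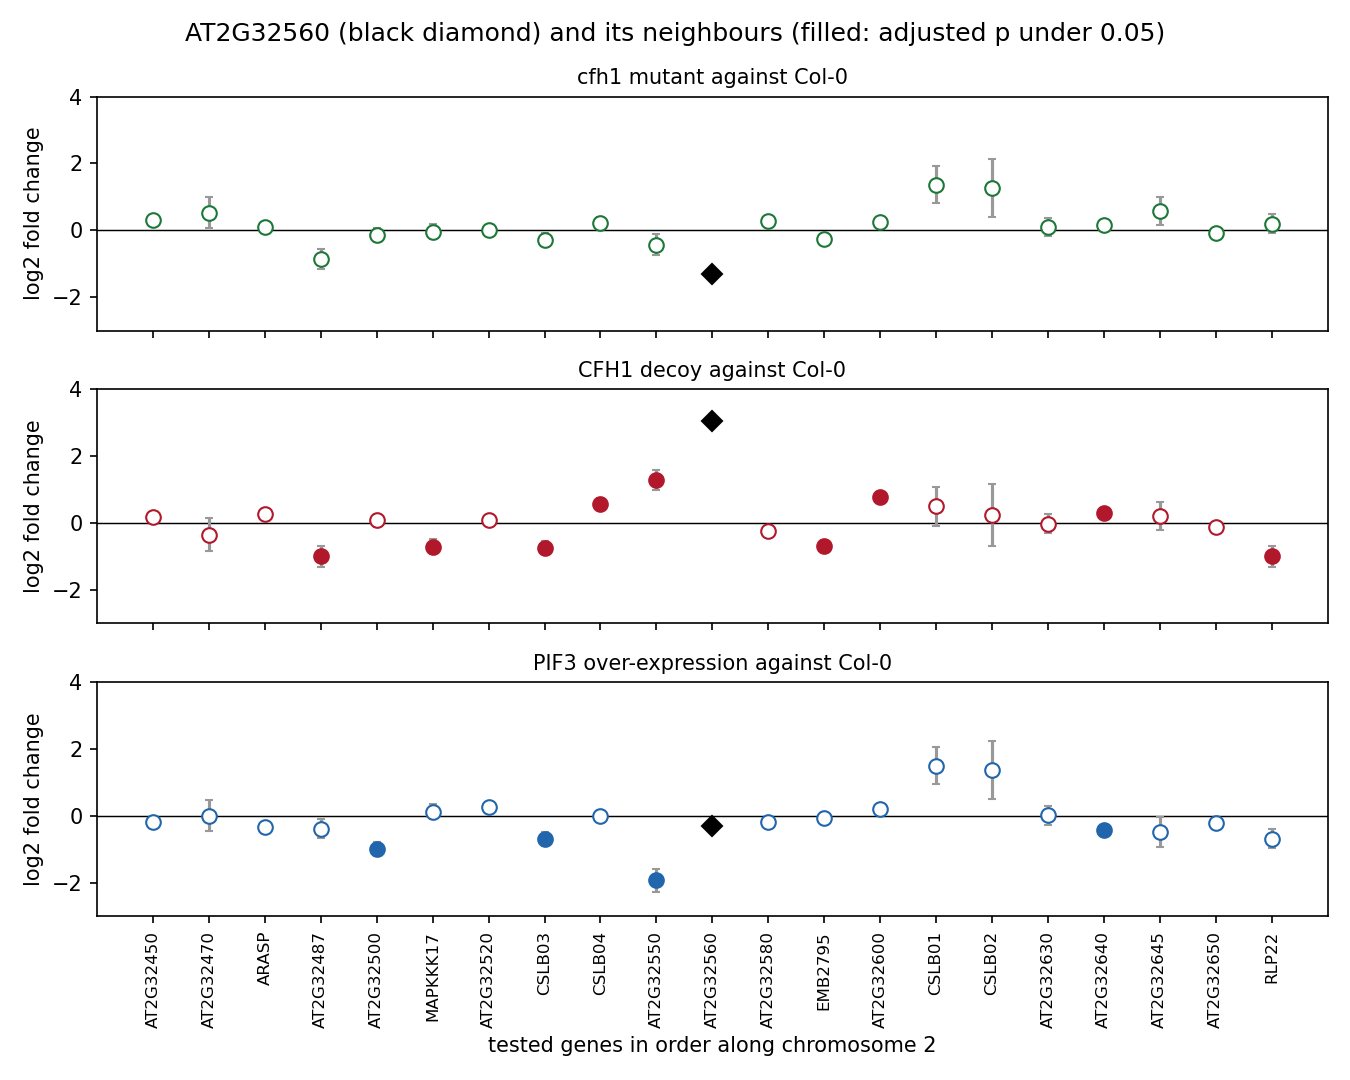
Log2 fold change against Col-0 of AT2G32560 (black diamond) and the 10 tested genes on either side, in gene order, in the cfh1 mutant, the CFH1 decoy line and the PIF3 over-expression line; error bars are SE and filled points had an edgeR adjusted p under 0.05. AT2G32560 stands at -1.31 in the cfh1 mutant, where the neighbours run from -0.85 to 1.36 and none is filled. It stands at 3.06 in the decoy line, where they run from -0.997 to 1.29. In the PIF3 line the neighbours run from -1.93 to 1.51.

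Other F-box genes, taken by the word F-box in the reference product, were measured in the same libraries. Of 650 other genes in the table with F-box in their reference product, 277 had 0 counts in every library and 184 passed the filter on low counts, which keeps a gene that is high in only 1 group. In the cfh1 mutant edgeR called 0 of the 184, with 5 (2.72%) at an unadjusted p under 0.05 beside 4.54% of all genes, and DESeq2 called 0. Of the same genes in the decoy line, 37 were called higher (20.1%) and 31 lower (16.8%), near the background shares of 19.6% and 21.2%. Library totals alone gave 23 higher and 46 lower, and shifted the decoy's all-gene median to -0.25. For the PIF3 line 7 were called higher (3.80%) and 3 lower (1.63%), beside 6.0% and 7.32% of all genes, and library totals alone gave 12 and 1. That scaling shifted the all-gene median of the PIF3 line to 0.08. Medians over the 184 were 0.03, 0.09 and 0.07 in the cfh1 mutant, the decoy line and the PIF3 line. The PIF3 counts were unsteady: 4 were higher without PIF3 replicate 1, PIF3 replicate 3 or Col-0 replicate 1, and 3 without Col-0 replicate 2. Of those lower, 0 were left without PIF3 replicate 1, Col-0 replicate 1 or Col-0 replicate 2, and 1 without PIF3 replicate 3 or Col-0 replicate 3. Over all genes the PIF3 counts fell too, to 413 to 1090 higher and 461 to 1429 lower, from 1275 and 1554.

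The largest F-box rise in the decoy line with a mean log2 CPM of at least 1 was in AT1G27540, which also carries a domain of unknown function, DUF295. It had 412, 261 and 334 CPM in the decoy line, against 27.4, 27.4 and 30.3 CPM in Col-0, with no overlap (log2 fold change 3.57, SE 0.158, edgeR adjusted p = 8.39e-09). Unlike AT2G32560, AT1G27540 was not lower in the cfh1 mutant, where it had 32.9, 31.2 and 34.6 CPM. The other leading rises were AT4G22280 (2.67), AT5G56370 (2.099), AT4G27050 (1.21) and AT5G38590 (1.15), all log2 fold changes past edgeR's test with adjusted p-values between 1.10e-06 and 0.000164. The deepest fall at the same minimum level was in AT3G52680, with 5 counts over the decoy libraries and 579 over Col-0 (log2 fold change -6.42, SE 0.340, edgeR adjusted p = 3.50e-08). It was followed by AT3G18320 (-3.37), AT2G40920 (-3.04), AT1G25211 (-2.77) and AT1G53790 (-2.40), with edgeR adjusted p-values between 9.76e-09 and 5.92e-06. These 10 calls held under every alternative run. AT1G27540 and AT1G53790 each share a coding run of 50 bases with 1 other gene, AT3G52680 and AT3G18320 with 2, and AT1G25211 with 4, so the split of reads among those copies is uncertain.

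Among called F-box genes with a mean log2 CPM of at least 1, the largest rise in the PIF3 line was in AT1G53790, at 7.33 ± 0.435 CPM, against 3.69 ± 0.313 CPM in Col-0 (SD, n = 3 each; log2 fold change 0.99, SE 0.188, edgeR adjusted p = 0.00648). SKP2A, a homolog of the cell cycle F-box protein SKP2, rose by 0.91 (SE 0.164, edgeR adjusted p = 0.0052). AT1G25055, which shares coding runs of 50 bases with 4 other genes, rose by 0.60 (edgeR adjusted p = 0.00783). It was also called higher in the decoy line (0.93, edgeR adjusted p = 9.47e-05). The calls on AT1G49360 (0.63, edgeR adjusted p = 0.0209), AT3G59150 (0.48, edgeR adjusted p = 0.0493) and the falling AT3G54460 (-0.33, edgeR adjusted p = 0.0377) were weaker. AT1G49360 lost its call without PIF3 replicate 1 (0.60), PIF3 replicate 3 (0.60), Col-0 replicate 1 (0.67) or Col-0 replicate 2 (0.54). AT3G59150 kept its call without PIF3 replicate 3 alone and AT3G54460 without PIF3 replicate 2 alone, with ranges of 0.38 to 0.57 and -0.38 to -0.26 over the libraries left out. In the decoy line AT3G54460 was called higher (0.50, edgeR adjusted p = 0.00142), whereas SKP2A, AT1G49360 and AT3G59150 did not pass.

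**Figure D3:**
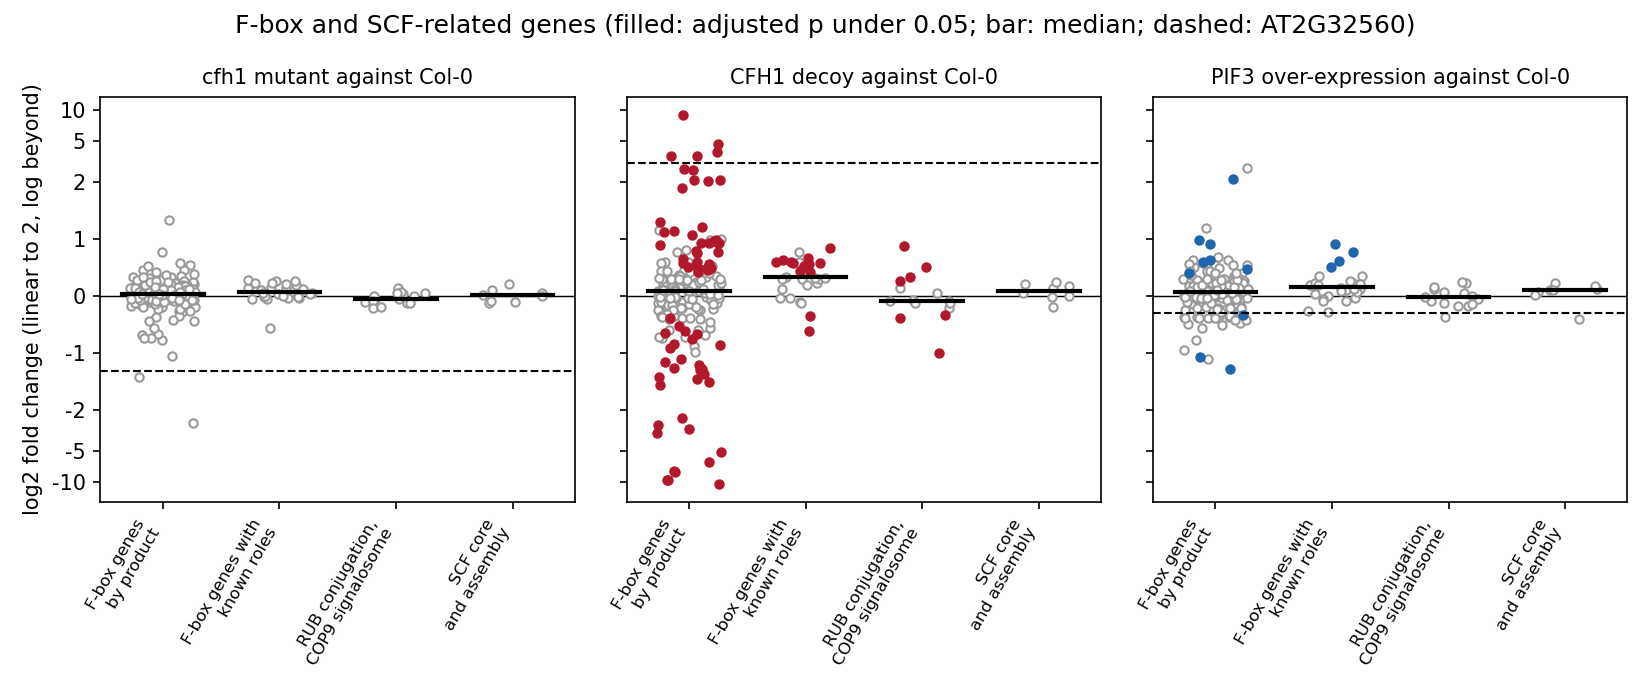
Log2 fold change against Col-0 of F-box and SCF-related genes in the cfh1 mutant, the CFH1 decoy line and the PIF3 over-expression line; each point is a gene, filled where the edgeR adjusted p was under 0.05, on an axis that is linear to 2 and logarithmic beyond; bars are medians and the dashed line is AT2G32560. The dashed line lies at -1.31, 3.06 and -0.29, and the medians of F-box genes by product at 0.03, 0.09 and 0.07.

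Genes for the partners with which an F-box protein forms an SCF complex were mostly not called. Of 11 listed core and assembly genes, 8 passed the filter on low counts, and edgeR called 0 of the 8 in each line, beside backgrounds of 0.0706%, 40.8% and 13.3% in the cfh1 mutant, the decoy line and the PIF3 line. At an unadjusted p under 0.05 there were 0, 0 and 2 of the 8 in these lines, beside 4.54%, 50.1% and 27.1% of all genes. DESeq2 called 0 in the cfh1 mutant, 1 higher in the decoy line and 1 lower in the PIF3 line. ASK1, the main adaptor, averaged 183 ± 1.84 CPM in the cfh1 mutant, 229 ± 17.5 CPM in the decoy line, 212 ± 8.80 CPM in the PIF3 line and 198 ± 4.81 CPM in Col-0 (SD, n = 3 each). Its log2 fold changes were -0.12, 0.21 and 0.10 in those lines (edgeR adjusted p = 0.970, 0.103 and 0.557). ASK1 was the gene DESeq2 called in the decoy line (0.22, adjusted p = 0.0226), and library totals alone gave -0.05 there. CUL1, the cullin, averaged 195 ± 17.5 CPM in the cfh1 mutant, 199 ± 17.2 CPM in the decoy line, 203 ± 15.3 CPM in the PIF3 line and 180.3 ± 11.8 CPM in Col-0. Its log2 fold changes of 0.11, 0.14 and 0.17 did not pass edgeR's test (adjusted p = 0.972, 0.348 and 0.367), and library totals alone gave -0.12 in the decoy line. Without decoy replicate 3, edgeR called 1 core gene lower in the decoy line.

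Conjugation of RUB, the plant NEDD8, activates the cullin, and the COP9 signalosome removes it again. Of 15 listed genes of these steps, all tested, edgeR called 0 in the cfh1 mutant and 0 in the PIF3 line, with 0 and 1 at an unadjusted p under 0.05, beside 4.54% and 27.1% of all genes, and DESeq2 called 0 in both. In the decoy line 4 were higher and 3 lower, 46.7% beside the background of 40.8%, with a median of -0.08. ECR1, a subunit of the RUB-activating enzyme, had 63.3 ± 10.96 CPM in the decoy line, against 34.3 ± 1.79 CPM in Col-0 (SD, n = 3 each; log2 fold change 0.88, SE 0.117, edgeR adjusted p = 0.000116). CSN2, a signalosome subunit, had 26.2 ± 11.2 CPM in the decoy line, against 52.5 ± 1.91 CPM in Col-0 (log2 fold change -0.99, SE 0.243, edgeR adjusted p = 0.00661). CSN5A, which carries the signalosome's protease activity, was higher (0.52, edgeR adjusted p = 0.00403), though not with library totals alone (0.25), and RUB2 was lower (-0.34, edgeR adjusted p = 0.00875). The count of higher genes was 2 without Col-0 replicate 1 or Col-0 replicate 2, and library totals alone gave 1 higher and 4 lower. Over all genes the decoy's higher count ran from 2830 to 4431 with single libraries left out. Library totals alone shifted its all-gene median to -0.25.

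F-box genes with known roles in hormone, light and clock signalling were compared last. Of 29 listed, 28 were tested. In the cfh1 mutant edgeR called 0, with 0 at an unadjusted p under 0.05 beside 4.54% of all genes, and DESeq2 called 0; the median was 0.07. The decoy line had 11 called higher (39.3%) and 2 lower (7.14%), beside 19.6% and 21.2% of all genes, with a median of 0.33. This split turned to 2 higher and 4 lower with library totals alone, which shifted the all-gene median of the decoy line to -0.25. All-gene counts under that scaling are given with the processing results. The higher count was 5 without decoy replicate 1, 6 without Col-0 replicate 1 and 4 without Col-0 replicate 2. The lower count was 1 without decoy replicate 2, Col-0 replicate 1 or Col-0 replicate 3, and 0 without decoy replicate 3 or Col-0 replicate 2. Over all genes the decoy line had 2830 to 4431 higher and 3453 to 4987 lower with single libraries left out.

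ZTL had 72.7, 53.0 and 55.5 CPM in the decoy line, against 36.3, 35.3 and 42.8 CPM in Col-0, without overlap (log2 fold change 0.66, SE 0.126, edgeR adjusted p = 0.00141). In the cfh1 mutant and the PIF3 line its log2 fold changes were 0.19 and 0.20 (edgeR adjusted p = 0.969 and 0.328). LCR, an F-box gene of leaf development, and the auxin receptor genes AFB5 and TIR1 were also called higher in the decoy line, with log2 fold changes of 0.57, 0.58 and 0.60 (edgeR adjusted p = 0.00252, 0.00903 and 0.0105). With library totals alone AFB5 was at 0.31 and TIR1 at 0.33, both short of the threshold. The 2 lower genes, named after their values were seen, were CPR1, a repressor of defence (-0.61), and AFR, a positive factor of phytochrome A signalling (-0.36). CPR1 lost its call without decoy replicate 3 (-0.58) or Col-0 replicate 2 (-0.57), and AFR held it only with decoy replicate 1 left out, among the 6 libraries.

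In the PIF3 line 4 of the 28 were called higher (14.3%, beside 6.0% of all genes) and 0 lower, with a median of 0.16. Besides SKP2A these were its relative SKP2B, the cytokinin-signalling F-box gene KMD3 and FKF1, a blue-light receptor that acts in flowering, with log2 fold changes of 0.62, 0.51 and 0.78 (edgeR adjusted p = 0.0249, 0.0255 and 0.0287). SKP2B and FKF1 were also called higher in the decoy line, at 0.57 and 0.62 (edgeR adjusted p = 0.0154 and 0.0335). Both decoy calls were lost with library totals alone (0.32 and 0.37). SKP2A and KMD3 did not pass in the decoy line (0.29 and -0.04). FKF1 was weakly expressed, at 6.97 ± 1.39 CPM in the PIF3 line and 4.07 ± 0.963 CPM in Col-0. The count of higher genes was 1 without PIF3 replicate 1, Col-0 replicate 1 or Col-0 replicate 2, and 2 without PIF3 replicate 3. SKP2A was the gene called in all of these fits, since its call held under every alternative run. With single libraries left out, the higher count over all genes in the PIF3 line ran from 413 to 1090, against 1275 in the main fit.

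Genes whose profile was most like that of AT2G32560 were ranked by the root mean square difference of log2 CPM, each gene being set relative to its own Col-0 mean, among 18122 genes. Over all 12 libraries the median gene differed by 1.69, and the closest, AT5G26270 (uncharacterized), by 0.37. AT5G26270 had 6.14, 4.38 and 7.72 CPM in the cfh1 mutant, 119.9, 81.6 and 65.2 CPM in the decoy line, 5.61, 8.77 and 8.49 CPM in the PIF3 line and 10.5, 9.62 and 10.99 CPM in Col-0. It was thus above Col-0 in every decoy library and below it in every cfh1 and PIF3 library, a likeness that follows from how the ranking picks genes. Its log2 fold changes of -0.76 in the cfh1 mutant and -0.44 in the PIF3 line did not pass edgeR's test (adjusted p = 0.969 and 0.267). The next were AT1G65250 (0.61), AT3G29410 (0.66), AT4G16920 (0.72) and AT1G60560 (0.75), which share the decoy rise. Their cfh1 means were 5.86, 7.06, 11.3 and 12.2 CPM, against Col-0 means of 6.66, 8.46, 11.3 and 14.5 CPM, and the cfh1 libraries of AT1G60560 were all below its Col-0 libraries.

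Over the 9 libraries without the decoy line, where the median gene differed by 0.82, the closest were AGP20 (0.16), which encodes an arabinogalactan protein, AT5G11330 (0.20), OBE1 (0.31), AT4G35030 (0.34) and the neighbour AT2G32487 (0.37). AT5G11330, annotated as an oxidoreductase, had 21.6, 16.8 and 22.5 CPM in the cfh1 mutant, 40.7, 53.5 and 47.0 CPM in the PIF3 line and 51.2, 48.4 and 52.4 CPM in Col-0. In the decoy line it had 43.0, 58.0 and 49.4 CPM, on both sides of the Col-0 libraries. AGP20 and OBE1 were likewise low in the cfh1 mutant, at 3.98 and 32.5 CPM, against 9.48 and 65.4 CPM in Col-0. Of these 5 genes, edgeR called AT5G11330 and OBE1 lower in the cfh1 mutant. AGP20, AT4G35030 and AT2G32487 did not pass there (edgeR adjusted p = 0.138, 0.760 and 0.969). In the decoy line AGP20 averaged 9.55 CPM and overlapped Col-0, whereas OBE1, at 48.9 CPM, was below Col-0 in every library. AT4G35030 and AT2G32487 were also below Col-0 in every decoy library, at means of 6.37 and 2.70 CPM, against 18.1 and 5.50 CPM. None of the 5 genes found over 12 libraries was among the 5 found over 9, though AT5G26270, the closest over 12, differed by 0.38 over the 9 libraries, near the value of AT2G32487. With Pearson's correlation in place of the difference, 2 of the 5 over 12 libraries were named again.

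**Figure D4:**
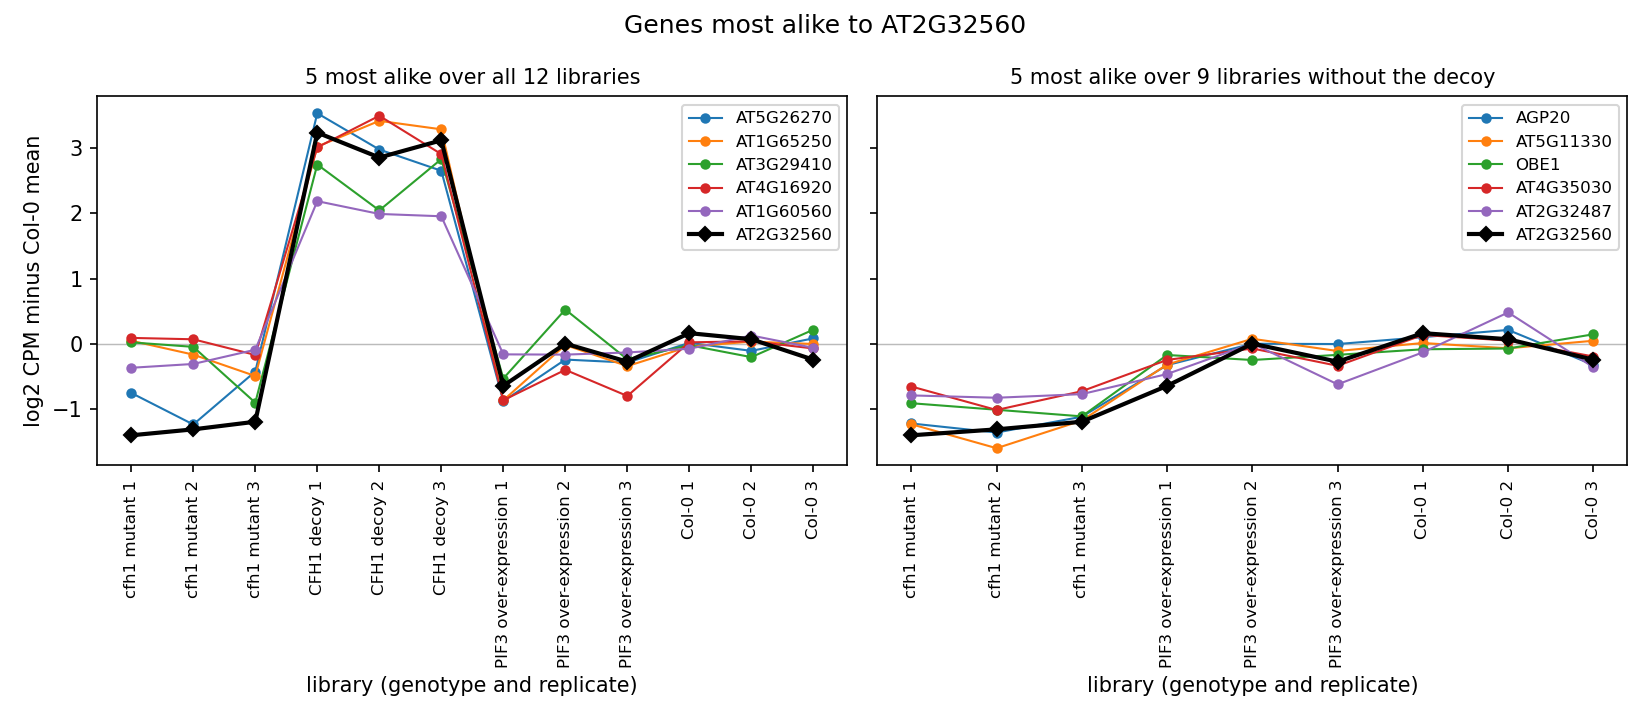
Log2 CPM relative to the gene's own Col-0 mean, by library, for AT2G32560 and the 5 genes most alike over 12 libraries or over the 9 without the decoy line, grouped as cfh1 mutant, CFH1 decoy line, PIF3 over-expression line and Col-0; lines only link the points of a gene. The 12-library genes follow the decoy rise and the 9-library genes follow the low cfh1 values, which is how they were picked.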

How the data were processed

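The authors' deposited table holds estimated counts for 12 libraries, and 41.57% of its values were not whole at a tolerance of 1e-09. Per the labels' protocols, TRIzol extracts gave 5 to 20 ng of RNA to an mRNA library kit. The submitters' processing notes list HISAT2 2.1.0, StringTie 2.1.2, Trimmomatic 0.39 and the build TAIR10, without roles. How reads were counted, and whether by strand, was not given in the labels. Counts were rounded to whole numbers, and 27390 of 27588 genes matched the TAIR10.1 annotation, which gave names, coordinates and sequences.

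Genes were kept with filterByExpr (minimum count 10), and the fit used edgeR 4.0.16 in R 4.3.3: TMM scaling and a quasi-likelihood model with 1 mean for each of 4 genotypes over 12 libraries (8 residual degrees of freedom), 2-sided tests, Benjamini-Hochberg adjustment over 21235 genes and a threshold of 0.05. CPM use TMM-scaled totals, and log2 CPM a prior count of 2. Proteins and coding sequences were compared by BLAST (e-value at most 1e-05). Alternatives were RLE factors, library totals alone, DESeq2 1.42.0, other filters, other sets of libraries, a replicate block and each replicate left out; summing AT2G32560 with AT2G26850 was added after the data were seen. The main edgeR fit alone was run on counts simulated from its own estimates, with changes placed in the cfh1 group. The alternatives and a shift as wide as that of the decoy line were not simulated.

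The gene and all lists were chosen with earlier results of these data known. Named were AT2G32560, PIF3 and homologs. Of neighbours, those named were the 2 on either side, those called in the cfh1 mutant or the PIF3 line and the 3 largest decoy changes. Of F-box genes, those named were the 5 largest called rises and falls per line at a mean log2 CPM of at least 1. Of each list up to 4 called members per line, ASK1, CUL1 and ZTL were named, and of profiles the 5 closest genes. The labels do not state separate cultures for the 3 libraries of a group, and the p-values then cover the spread among libraries, which may be technical. No column was left without a sample.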

Additional observations from a re-analysis of the deposited data

How the results depend on the processing

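The log2 fold change of AT2G32560 ran from -1.42 to -1.22 over 15 alternatives in the cfh1 mutant and from 2.80 to 3.16 over 14 in the decoy line. In the PIF3 line it ran from -0.45 to -0.14 over 15. Adjusted p-values there, from edgeR's test or from DESeq2 by alternative, were 0.104 to 0.712. The low value of 2.80 came with library totals alone. Of 44 calls on 40 other named genes, 25 held under every alternative. Reversed values were ASK1 (-0.051) and CUL1 (-0.117) in the decoy line with library totals alone, and AT2G41170 in the cfh1 mutant without cfh1 replicate 1 (-0.00095, range to 0.18 over the libraries left out). In the PIF3 line, where neither was called, EMB2795 was at 0.024 with library totals alone and between -0.15 and 0.067, and CSLB04 between -0.089 and 0.11, with single libraries left out.

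Library totals alone gave 6 genes higher in the cfh1 mutant, and in the decoy line 1720 higher and 6929 lower over all genes, 2 neighbours higher, 23 F-box genes higher, 1 SCF core gene lower, 1 RUB or COP9 gene higher, and 2 F-box genes of known role higher and 4 lower. In the PIF3 line it gave 1 neighbour higher and 2 lower, and 12 F-box genes higher and 1 lower. DESeq2 called 7 genes higher and 31 lower in the cfh1 mutant, 1 SCF core gene higher in the decoy line, and in the PIF3 line 1 neighbour higher, 5 F-box genes lower and 1 SCF core gene lower. Fitting 2 groups alone gave, in the decoy line, 3 neighbours lower, 2 RUB or COP9 genes higher, and 6 F-box genes of known role higher and 1 lower. In the PIF3 line it gave 1930 genes higher and 2349 lower, 13 F-box genes higher and 7 lower, and 1 RUB or COP9 gene lower. Without the decoy libraries 5 genes were higher in the cfh1 mutant, and in the PIF3 line 2020 genes, 14 F-box genes and 7 of known role were higher, with 7 F-box genes, 1 SCF core gene and 1 RUB or COP9 gene lower. Of the 5 most like genes, Pearson's correlation kept 2, and the 9 libraries without the decoy kept 0. The causes were not tested.

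With single replicates left out, genes lower in the cfh1 mutant numbered 7 to 12. In the decoy line neighbours numbered 2 to 3 higher and 2 to 5 lower, SCF core genes 0 to 1 lower, RUB or COP9 genes 2 to 4 higher, and F-box genes of known role 4 to 15 higher and 0 to 2 lower. In the PIF3 line all genes numbered 413 to 1090 higher and 461 to 1429 lower, neighbours 2 to 2 lower, F-box genes 3 to 6 higher and 0 to 2 lower, and those of known role 1 to 4 higher.

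Same-numbered libraries were not treated as pairs in the main fit. Of 18 same-numbered pairs the correlation of deviations from the group mean ran from -0.36 to 0.27, with 2 over 0.1. With group means of 3 libraries, these values cannot tell whether same-numbered libraries were handled together. With the replicate number as a block, AT2G32560 was at -1.30, 3.07 and -0.29 (edgeR adjusted p = 0.348), and 1 F-box gene was lower in the PIF3 line. Depth limits AT2G26850, whose level was at or under 3 counts in every group.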
